A study of Homo sapiens with 2 samples.

Results

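The genes described are 42 genes of the G1/S transition and of DNA replication, followed across single PC9 cells that carried sgRNAs against 6 genes or non-targeting sgRNAs. The members were given as a list of symbols, all 42 were found among the 36601 genes of the matrix, and 41 had enough counts to be tested, the exception being the cyclin gene CCNE2. PC9 is an established human lung adenocarcinoma cell line that depends on mutant EGFR. The culture was infected with a lentiviral sgRNA library in 8 ug/ml polybrene to reach an infection rate of about 40%, selected in 1 ug/ml puromycin, and read as 1 pool by droplet single-cell RNA sequencing from the 3' end with capture of the sgRNA. The groups are the cells with sgRNAs of ATF4 (6 sgRNAs), PGAM1 (4), MYC (2), CTNNB1 (6), JUN (6) and CTCF (6), set against those with Non-Targeting sgRNAs (4). All groups share the same line, vector, selection and harvest. The labels name both knockout and dCas9, a Cas9 that does not cut, and give both day 7 and day 8 for the harvest, so neither the kind of perturbation nor the day is settled here. The labels also speak of 4 target genes and of non-targeting sgRNAs as 5% of the library.

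As cells pass from G1 into S phase, cyclin-dependent kinases inactivate the RB family, and E2F transcription factors then switch on a broad set of genes for copying DNA. The proteins license origins by loading the MCM helicase, activate it with CDC45 and GINS, prime and extend new strands with polymerases held by the PCNA clamp, supply nucleotides and histones, and protect forks. Mitotic genes come later in the cycle and are held down in resting and G1 cells by the DREAM complex through CHR promoter elements, and are switched on later by B-MYB and FOXM1.

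Of 10847 cell barcodes, 10142 passed the filters with 1011 to 39824 unique molecular identifiers (UMIs, counts of captured RNA molecules) each, and 5556 (54.8%) could be assigned to 1 sgRNA. The sums over the cells of each tested sgRNA ranged from 267726 to 6430143 UMIs, and the smallest sums were those of the MYC group. The keratin genes KRT8, KRT18 and KRT19 had 1595, 4348 and 2156 CPM over all assigned cells (counts scaled to a common total of UMIs), whereas the 8 markers of other cell types ran from 0, for COL1A2 and HBB, to 1.67 CPM for the collagen gene COL1A1, which had a UMI in 2.12% of cells. The next of these was the leukocyte gene PTPRC at 0.181 CPM, so that the markers of an epithelial line were far above those of other cell types. The targeted gene's own transcript was lower with PGAM1 sgRNAs (73.5 ± 20.7 against 208.0 ± 3.82 CPM in Non-Targeting sgRNAs, SD), with ATF4 sgRNAs (260.5 ± 47.0 against 361.5 ± 15.5 CPM) and with CTNNB1 sgRNAs (26.2 ± 8.26 against 49.6 ± 7.67 CPM). JUN and CTCF transcripts overlapped those of the controls, with log2 fold changes of -0.14 for JUN and -0.18 for CTCF. A fall of the target's RNA was thus not shown in the JUN and CTCF groups, and no direction given below for them can be tied to it. MYC transcript was 86.7 and 142 CPM with the sgRNAs labelled MYC, above all 4 Non-Targeting sgRNAs (63.05 to 72.6 CPM). In this group 11.6% of all genes lay above all controls. The log2 fold change of 0.62 had an adjusted p of 0.484 by edgeR's quasi-likelihood test. A fall of MYC RNA was thus not seen, although 3' counts need not fall after a cut in the gene. No direction given below for the MYC group can therefore be tied to less MYC.

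The order of the genes across cells, described further on, put UNG and MCM6 at its early end and RRM2 and RAD51AP1 at its late end, so the promoters of these genes are shown with that of TUBB4B, the mitotic gene with the most UMIs. Sequences are RefSeq windows on GRCh38.p14 of 300 bases, from 250 before to 50 after an annotated start, written 5' to 3' on the gene's strand. Capitals mark E2F-type letters in the members, which are TTCCCGC, also the variant TTCGCGC, also the variant TTGCCGC and also the variant TTGGCGC, on either strand and with overlapping matches included. In TUBB4B they mark CCAAT, known as a site of NF-Y, and the CHR letters TTTGAA, on either strand. UNG lies at chr12:109097347-109097646 on the plus strand, MCM6 at chr2:135876394-135876693 on the minus strand, RRM2 at chr2:10122489-10122788 on the plus strand, RAD51AP1 at chr12:4538640-4538939 on the plus strand and TUBB4B at chr9:137241037-137241336 on the plus strand.
UNG: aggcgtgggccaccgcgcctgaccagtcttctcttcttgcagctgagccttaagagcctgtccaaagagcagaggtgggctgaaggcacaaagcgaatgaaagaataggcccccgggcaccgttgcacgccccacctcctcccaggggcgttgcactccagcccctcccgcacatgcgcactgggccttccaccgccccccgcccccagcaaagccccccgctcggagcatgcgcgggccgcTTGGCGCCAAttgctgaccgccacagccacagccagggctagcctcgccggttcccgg
MCM6: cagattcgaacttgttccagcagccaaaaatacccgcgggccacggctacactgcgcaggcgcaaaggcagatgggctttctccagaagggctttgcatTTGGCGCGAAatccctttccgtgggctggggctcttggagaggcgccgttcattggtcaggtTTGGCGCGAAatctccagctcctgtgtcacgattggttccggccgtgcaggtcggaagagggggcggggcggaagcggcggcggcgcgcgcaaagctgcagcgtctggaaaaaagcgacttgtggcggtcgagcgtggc
RRM2: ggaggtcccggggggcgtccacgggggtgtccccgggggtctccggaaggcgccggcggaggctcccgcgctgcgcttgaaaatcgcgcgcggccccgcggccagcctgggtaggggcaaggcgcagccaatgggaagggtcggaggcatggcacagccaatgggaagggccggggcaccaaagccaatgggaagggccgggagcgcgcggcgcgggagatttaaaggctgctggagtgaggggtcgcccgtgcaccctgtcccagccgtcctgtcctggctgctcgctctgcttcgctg
RAD51AP1: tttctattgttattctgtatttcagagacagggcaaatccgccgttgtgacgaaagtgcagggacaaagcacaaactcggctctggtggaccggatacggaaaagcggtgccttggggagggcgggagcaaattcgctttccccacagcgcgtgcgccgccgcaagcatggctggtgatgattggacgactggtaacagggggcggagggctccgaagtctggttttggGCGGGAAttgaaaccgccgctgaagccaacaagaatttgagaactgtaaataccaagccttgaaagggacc
TUBB4B: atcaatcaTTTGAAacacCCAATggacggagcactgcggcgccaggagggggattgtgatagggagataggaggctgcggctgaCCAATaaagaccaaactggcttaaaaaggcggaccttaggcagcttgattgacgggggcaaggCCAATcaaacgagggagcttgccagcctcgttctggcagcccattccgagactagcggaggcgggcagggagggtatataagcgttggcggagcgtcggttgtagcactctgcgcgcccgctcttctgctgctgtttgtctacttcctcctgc
The UNG window held 2 E2F-type matches, which overlap on opposite strands and run into a CCAAT. The MCM6 window held 4 matches in 2 such pairs, the RAD51AP1 window 1 and the RRM2 window shown none, although it held 3 CCAAT matches and another annotated RRM2 window held 1 E2F-type match. The TUBB4B window held 3 CCAAT matches, 1 CHR match and no E2F-type match.

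Across the members, promoters mostly carried E2F-type letters and seldom CHR letters, the opposite of the mitotic genes. Windows were found for 34 of the 42 members, and 28 of the 34 (82.4%) had an E2F-type match in at least 1 window, against 34 of 48 other replication and G1/S genes (70.8%), 12 of 45 mitotic genes (26.7%) and 15.3% of all 27305 genes with windows. CHR letters were present for 3 of the 34 members (8.82%), 12.5% of the other replication genes, 71.1% of the mitotic genes and 18.2% of all genes. CCAAT did not separate the lists, with 70.6% of members and 73.3% of mitotic genes, although both stood above the 39.7% of all genes. The 6 members with windows but no such match were SLBP, which binds histone mRNA, the histone chaperone NASP, ORC6, CDC45, FEN1 and BRCA2. A match is a run of letters, and binding was not measured.

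**Figure D1:**
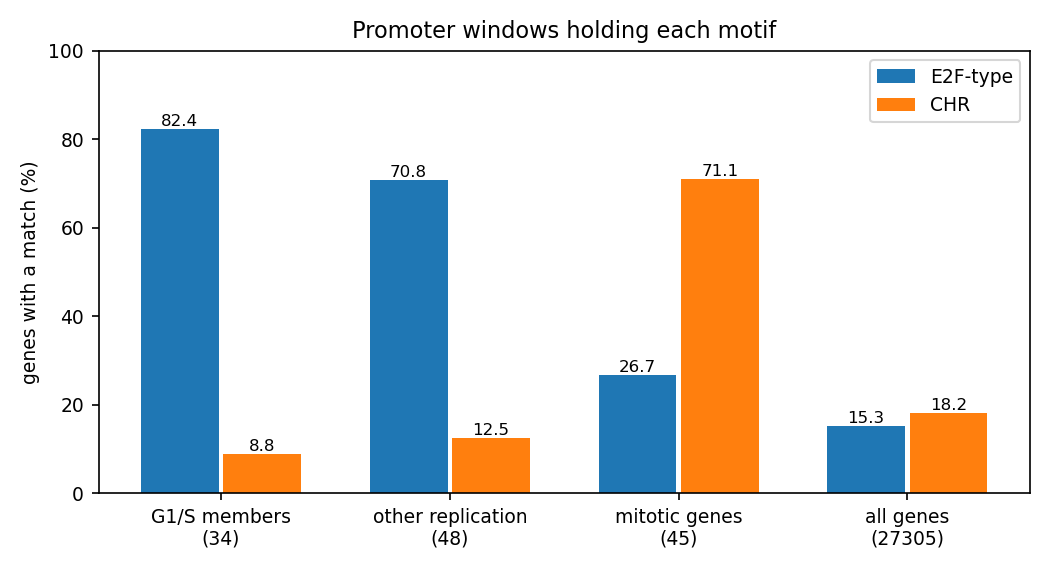
Share of genes (%, y axis from 0) whose promoter windows hold E2F-type letters or CHR letters, for the 34 members with a window, 48 other replication genes, 45 mitotic genes and all 27305 genes. E2F-type letters were in 82.4% of the members and 26.7% of the mitotic genes, and CHR letters in 8.82% and 71.1%.

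All 42 members were detected, with means over the 34 sgRNAs between 2.29 CPM for CCNE2 and 139 CPM for NASP, and 33 of them had a mean of at least 10 CPM. CPM values here count molecules captured at their 3' ends. No order of abundance between genes is drawn from them. Among the licensing genes, the origin recognition subunit ORC6 had 37.6 CPM, the loading factors CDC6 and CDT1 11.8 and 45.8 CPM, the CDT1 inhibitor GMNN 29.7 CPM, and the helicase subunits MCM2, MCM4, MCM5 and MCM6 9.8, 61.6, 15.1 and 25.5 CPM. The helicase activators CDC45 and GINS2 had 19.9 and 15.9 CPM. The sliding clamp PCNA had 118 CPM, the clamp loader subunit RFC2 30.3 CPM, the primase subunit PRIM1 29.6 CPM, the polymerase subunits POLA1 and POLD3 5.78 and 32.1 CPM, the flap nuclease FEN1 21.7 CPM and the loader subunit DSCC1 12.7 CPM. The ribonucleotide reductase subunits RRM1 and RRM2 had 54.1 and 41.3 CPM, and the thymidylate synthase TYMS 37.8 CPM.

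Histone supply genes included NASP and SLBP (53.2 CPM), the histone transcript processing factor CASP8AP2 (24.1 CPM) and the chromatin assembly subunit CHAF1B (5.67 CPM). The chromatin genes UHRF1, a reader needed to keep DNA methylation, HELLS, a remodeller, CDCA7, its partner, and ATAD2, an ATPase with a bromodomain, had 5.53, 43.8, 16.7 and 55.6 CPM. The fork and repair genes ran from 6.48 CPM for the exonuclease EXO1 to 76.3 CPM for USP1, which removes ubiquitin from PCNA, and included the checkpoint adaptor CLSPN, the fork protein TIPIN, the helicase BLM, the recombination genes BRCA1, BRCA2 and RAD51AP1, the uracil glycosylase UNG and WDR76. Among the cycle control genes besides CCNE2, the repressor E2F8 had 16.6 CPM, the ubiquitin ligase subunit DTL 7.21 CPM and UBR7 3.41 CPM.

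Members peaked in cells with intermediate to high amounts of mitotic RNA and were lower again in the most mitotic cells. For this description, the 5496 assigned cells with at least 5000 UMIs were each thinned to 5000 UMIs, so that depth was equal, and ranked by the summed UMIs of 53 mitotic genes, none of them a member, into 10 bins of about 550 cells. Summed member UMIs per cell from bin 1 to bin 10 were 2.20, 2.38, 2.65, 3.19, 3.95, 6.96, 11.6, 11.6, 9.0 and 5.36. Members were thus at their highest in bins 7 and 8, where cells held 13 to 27 mitotic UMIs, and were below that level in bin 10, where they held 40 to 130. Summed UMIs of 15 histone genes ran from 0.525 in bin 3 to 3.58 in bin 8 and were 2.55 in bin 10. The gene HIST1H4C alone made up 0.887 of the mean of 1.64 histone UMIs per cell, so this sum mostly follows few genes. Before thinning, median UMIs per cell ranged from 10511.5 in bin 1 to 15545 in bin 10, and how cell size bears on the pattern was not tested.

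**Figure D2:**
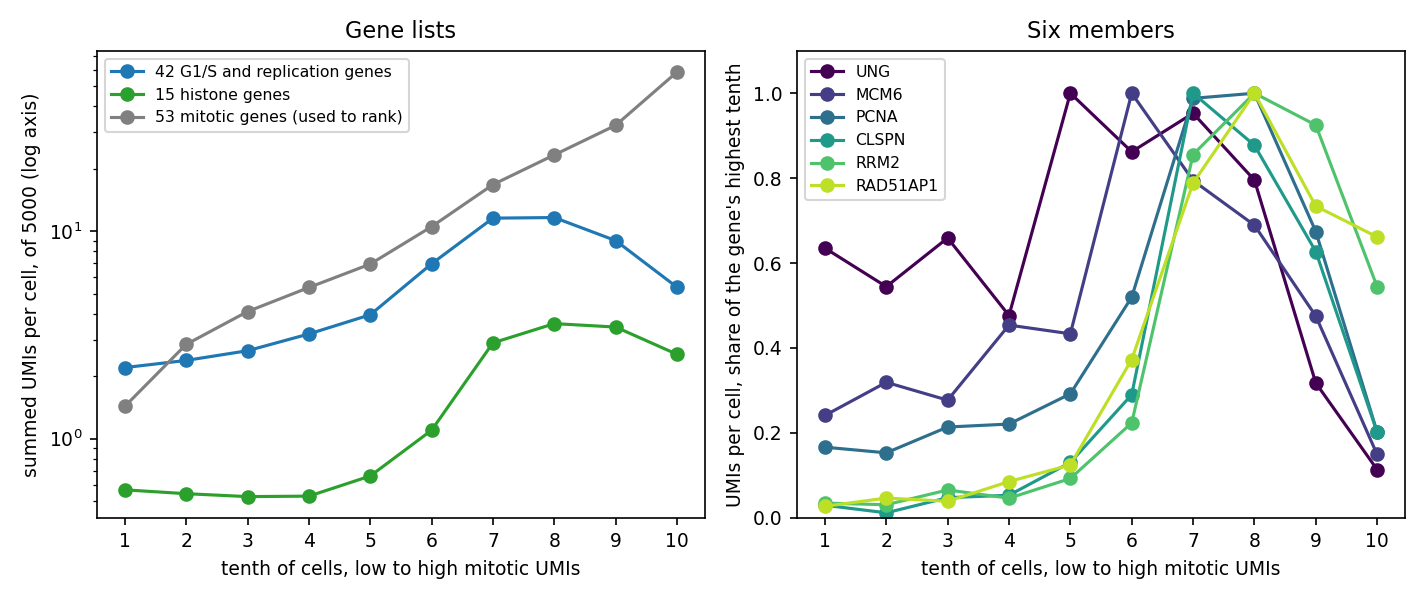
Left, summed UMIs per cell (of 5000, log axis) of the members, 15 histone genes and the 53 mitotic genes used for ranking, against the bin of cells from low to high mitotic UMIs. Right, UMIs per cell of 6 members as a share of each gene's highest bin, where UNG and MCM6 fall off before RRM2 and RAD51AP1. The member sum peaks at 11.6 UMIs per cell in bins 7 and 8.

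Single members followed this course at different points. Of the 33 members with at least 0.05 UMIs per thinned cell, 15 were highest in bin 7 and 16 in bin 8, and only UNG (bin 5) and MCM6 (bin 6) were highest before these. UNG had 0.0509 UMIs per cell in bin 1, 0.0801 in bin 5, 0.0764 in bin 7 and 0.0091 in bin 10, so that it was scarce in the most mitotic cells. Its mean of 0.051 was close to the floor of 0.05, and bin 5 was barely above bin 7, so the bin of its peak is uncertain. MCM6 had 0.0618 in bin 1, 0.256 in bin 6 and 0.0383 in bin 10. PCNA was low at both ends, with 0.205 in bin 1, 1.24 in bin 8 and 0.25 in bin 10. RRM2 had 0.0164 in bin 1, 0.472 in bin 8 and still 0.257 in bin 10, and RAD51AP1 0.0127, 0.468 and 0.310 in the same bins. The late members thus stayed well above their bin 1 level in cells where UNG, MCM6 and SLBP were below theirs (SLBP 0.215 in bin 1 and 0.153 in bin 10).

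Cells were also split by each member in turn. This used the same cells and the same mitotic UMIs, so it is another view of the same values and not separate support. Cells with at least 1 UMI of a member held more mitotic UMIs than cells with none for 29 of the 33 members (87.9%), whereas this held for 65.6% of the 7575 genes at that level. The median ratio was 1.26 for members, 1.04 for all genes and 2.64 for the mitotic genes themselves. The ratio was highest for RRM2, where cells with the transcript held 26.5 and cells without it 14.6 mitotic UMIs (ratio 1.82), followed by RAD51AP1 (1.79), BRCA2 (1.73), ORC6 (1.64) and E2F8 (1.62). It was lowest for UNG, with 11.6 and 16.5 mitotic UMIs (ratio 0.70), then MCM6 (0.91) and SLBP (0.94), and CASP8AP2 lay just under 1. Histone UMIs were higher in cells with the member for all 33 members, but also for all 51 mitotic genes and for 61.2% of all genes. The median ratio was 1.79 for members, 1.83 for mitotic genes and 1.03 for all genes, so this did not set members apart from mitotic genes. These are descriptions over cells of 1 culture and 1 library, and carry no test.

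To order the members, each cell was given an angle from its summed other members and its summed mitotic UMIs, both standardised. An angle of 0 degrees means high in other members and average in mitotic genes, 90 degrees the reverse, and a gene's phase is its UMI-weighted circular mean over 12 sectors. The axes themselves place members near 0 and mitotic genes near 90, so only the order within the members is described. The ± values are the SD over the 6 groups that had at least 200 cells. This SD is taken around the phase in all cells, not around the mean of the groups. The earliest members were UNG at -42.2 ± 10.3 degrees, MCM6 at -20.6 ± 8.42, MCM5 at -20.2 ± 9.42, SLBP at -14.2 ± 41.0 and CDCA7 at -13.1 ± 4.17. The latest were RAD51AP1 at 46.5 ± 13.4, RRM2 at 40.5 ± 11.2, E2F8 at 36.05 ± 17.8, BRCA2 at 34.4 ± 22.4 and ORC6 at 32.6 ± 14.4. SLBP had by far the widest spread and its place is uncertain.

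Neighbours in this order were mostly not separated, since only 1 of 32 neighbouring pairs, UNG and MCM6, differed by more than both SDs. The 5 members at each end were picked from this order, which includes the cells of all groups, so the distance between the ends is a description. By role, the median phase was -3.39 degrees for histone supply and chromatin genes, 8.77 for licensing, 9.84 for helicase activation, 14.1 for primase, polymerase and clamp genes, 27.0 for fork protection and repair, and 32.4 for nucleotide supply. The roles overlapped, as licensing genes ran from MCM6 to ORC6 and repair genes from UNG to RAD51AP1. Among 34 other replication and G1/S genes, placed in the same way, the mismatch repair gene MSH6 and the helicase subunit MCM3 were at -17.8 and -10.8 degrees, and the cyclin CCNA2 was at 76.6 degrees among the mitotic genes. The 9 members under 0.05 UMIs per cell, which were MCM2, POLA1, CHAF1B, UHRF1, EXO1, WDR76, CCNE2, DTL and UBR7, were not ordered.

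**Figure D3:**
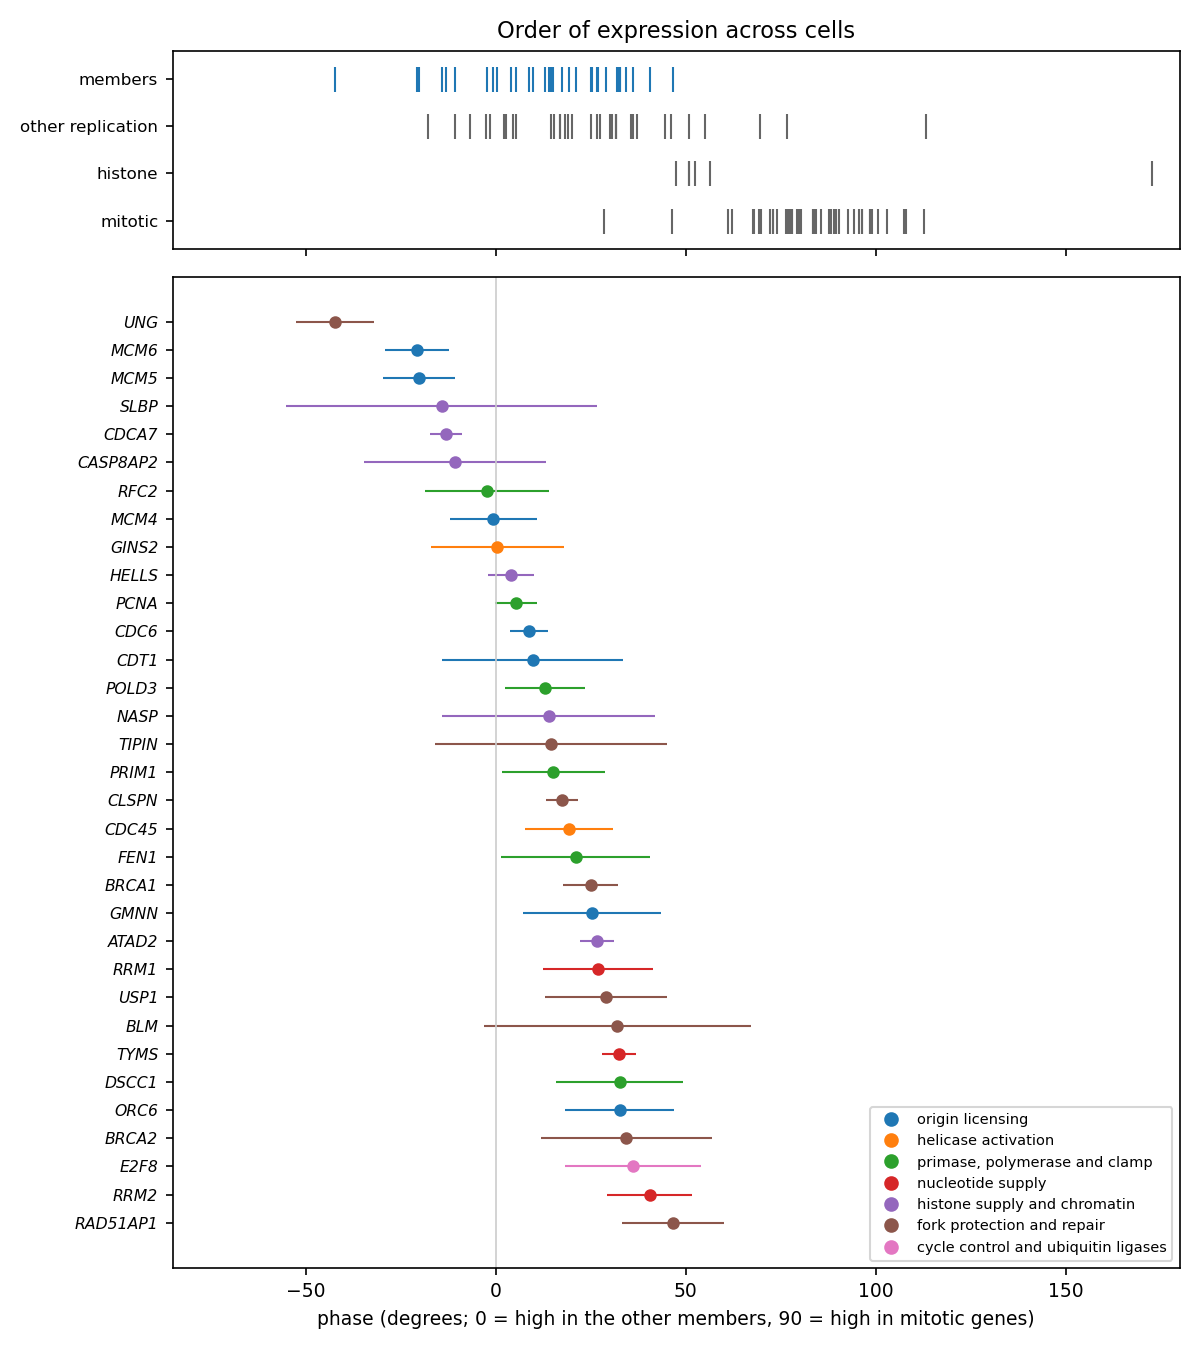
Phase in degrees (x axis) of the 33 ordered members, coloured by role, and of other replication, histone and mitotic genes in the strip above. Bars give the SD over 6 sgRNA groups around the phase in all cells. UNG at -42.2 degrees is the earliest member and RAD51AP1 at 46.5 the latest, and most neighbours overlap within their bars.

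Members varied together from cell to cell. Of the 15 genes most like them, 4 were in the mitotic list, 3 in the list of other replication genes, 2 in the histone list and 6 in none of these. Cells with a UMI of a member held more UMIs of the other members for all 33 members, from 1.38 times for SLBP to 2.63 times for CLSPN. Cells with a UMI of a mitotic gene also held more member UMIs, for all 51 such genes, as did 62.1% of all genes. The median ratio was 2.00 for members, 1.40 for mitotic genes and 1.03 for all genes. Pearson's r across the 5496 cells between each gene and the summed members, on log thinned UMIs, had a median of 0.01 over all genes. Outside the list it was highest for the histone gene HIST1H4C (0.476), followed by H2AFZ (0.435), HMGB2 (0.418), MYBL2 (0.415), which encodes B-MYB, HMGB1 (0.404), CKS1B (0.395) and CDK1 (0.394). MCM7 (0.376), TUBA1B (0.374), PCLAF (0.361), UBE2T (0.357), STMN1 (0.356), DUT (0.347), HIST1H1D (0.344) and SMC4 (0.338) completed the 15 highest. Of the members themselves, measured against the others, PCNA reached 0.466 and UNG 0.0854. The cells share 1 library and their depth was made equal, and most single members had 0 or 1 UMI in a cell, which keeps r low.

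By edgeR's quasi-likelihood test, none of the 41 tested members passed an adjusted p of 0.05 against the Non-Targeting sgRNAs for any of 6 targets. DESeq2 called none either, but it gave no adjusted p for some members and so could not call them. These included BRCA2, SLBP and CDT1 with PGAM1 sgRNAs and MCM4 with the sgRNAs labelled MYC. Later results of no call by DESeq2 carry the same limit. Counts were summed per sgRNA, so the sgRNA was the unit. As the sgRNAs share 1 culture, the p-values speak only of how far sgRNAs scatter, and that scatter may be technical. In such sums, fewer cells in S phase and less RNA per cell cannot be told apart. All 6 contrasts share the same 4 control sgRNAs, so a low value in the controls would show as a higher value in every group. Among all 11570 genes tested, the shares called higher and lower were 0.605% and 1.15% for ATF4, 0.0864% and 0.303% for PGAM1, 0.164% and 0.112% for the sgRNAs labelled MYC, 0% and 0.00864% for CTNNB1, 0.00864% and 0% for JUN, and 0.0173% and 0.00864% for CTCF. At these shares, no called member among 41 is near the background.

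At an unadjusted p under 0.05, 2 members were higher and 0 lower for ATF4 (6% and 6.45% of all genes), 5 and 0 for PGAM1 (4.36% and 4.36%), 2 and 1 for MYC (3.22% and 4.61%), 6 and 0 for CTNNB1 (2.04% and 2.26%), 1 and 0 for JUN (2.45% and 2.18%) and 1 and 0 for CTCF (3.38% and 2.85%). The median log2 fold change of the members was 0.01 for ATF4, 0.13 for PGAM1, 0.17 for MYC, 0.12 for CTNNB1, 0.04 for JUN and -0.02 for CTCF, where that of all genes was 0.00, 0.01, -0.04, 0.00, 0.00 and 0.00 in the same order. These medians depended on which cells entered: in cells at or below the median of mitotic UMIs they were 0.28 for ATF4, 0.29 for PGAM1, -0.24 for MYC (1 sgRNA), 0.26 for CTNNB1, 0.40 for JUN and 0.24 for CTCF. In cells with at most 10% mitochondrial UMIs they turned to -0.03 for ATF4, -0.03 for PGAM1, -0.06 for JUN and 0.01 for CTCF, and without MYC sgRNA 4 the median for MYC was -0.14. Members with a log2 fold change above 0 were 34 of 41 for PGAM1 (51.2% of all genes) and 33 of 41 for CTNNB1 (50.1% of all genes), against 22 for ATF4 (50.7%), 25 for MYC (45.5%), 28 for JUN (51.1%) and 18 for CTCF (51.2%). The 95% interval of the fold change lay within 1.5-fold either way for 34 members with CTNNB1 and CTCF sgRNAs each, 31 with ATF4, 29 with JUN, 22 with PGAM1 and 4 with MYC. Over all genes the shares were 72.3% for CTNNB1, 69.2% for CTCF, 63.9% for ATF4, 65.8% for JUN, 49.2% for PGAM1 and 16.1% for MYC, against 82.9%, 82.9%, 75.6%, 70.7%, 53.7% and 9.76% of the members in the same order. The MYC group had the lowest share among members and among all genes.

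**Figure D4:**
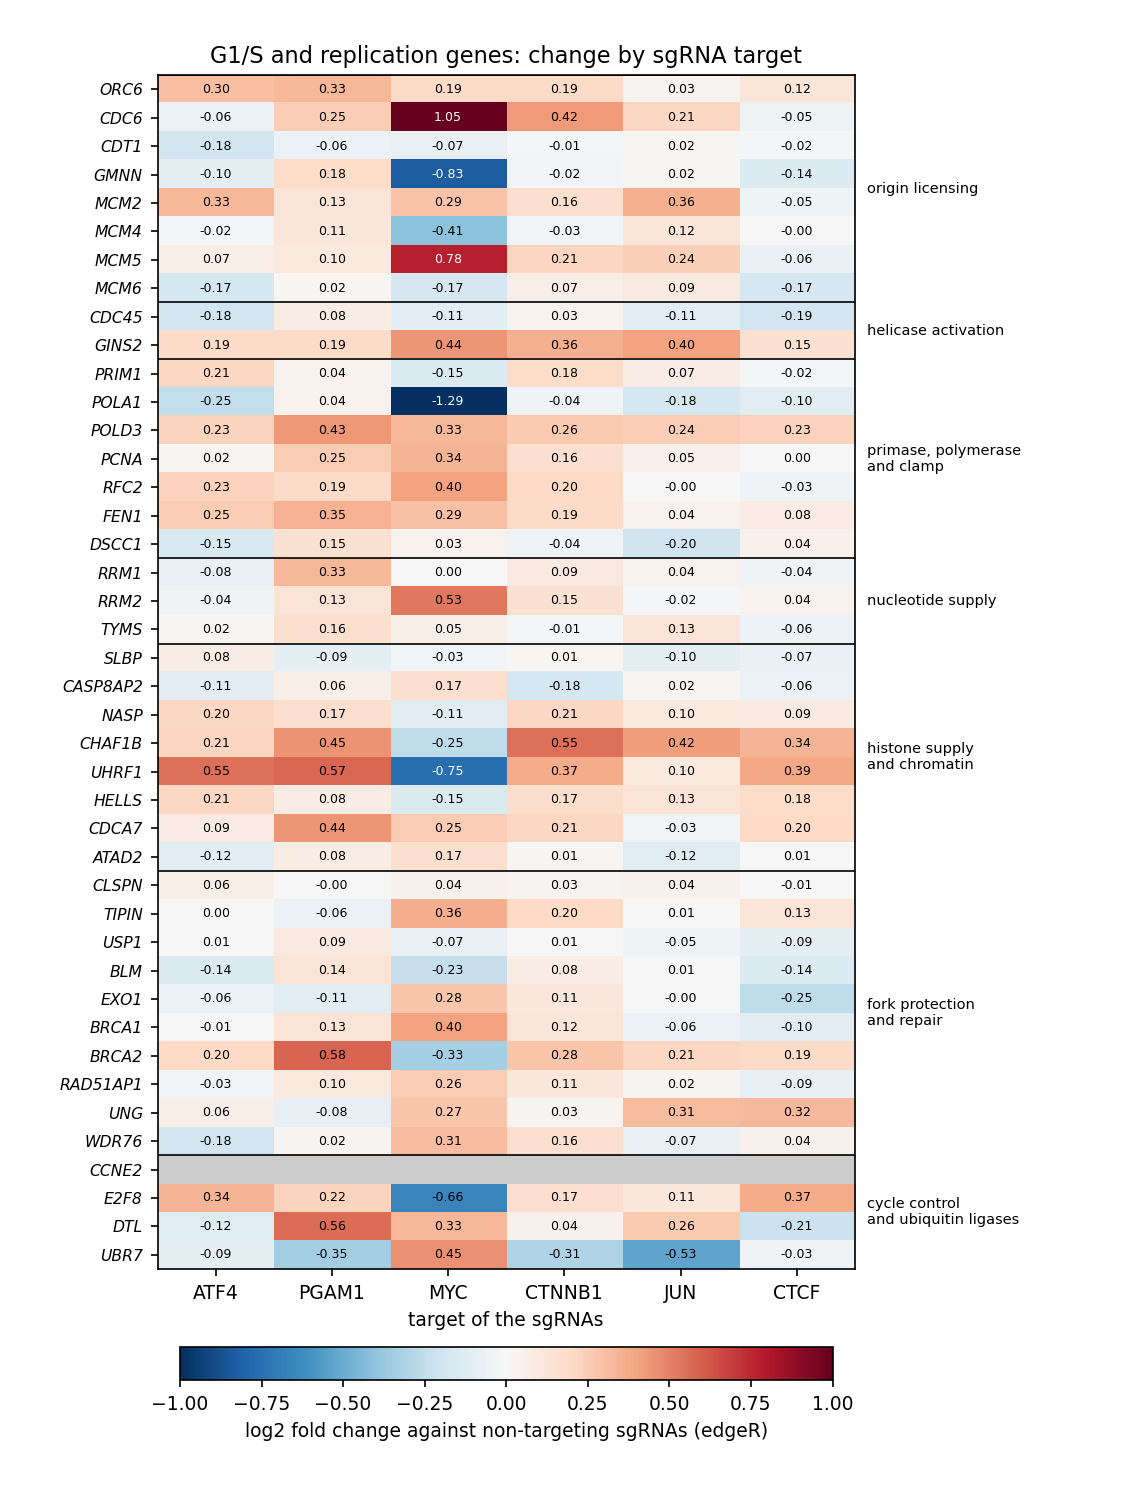
Log2 fold change against the Non-Targeting sgRNAs (edgeR) of each tested member, in rows by role, for each sgRNA target, in columns. Values are printed in the cells, none passes an adjusted p of 0.05, and the MYC column, with 2 sgRNAs, runs from -1.29 to 1.05.

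With PGAM1 sgRNAs, which target a glycolytic mutase, 34 of 41 members had a log2 fold change above 0, although their median was -0.03 in cells with at most 10% mitochondrial UMIs, where 3 PGAM1 sgRNAs remained. BRCA2 had 52.0, 24.4, 38.0 and 25.4 CPM in the 4 PGAM1 sgRNAs, against 23.3, 24.1, 18.9 and 15.4 CPM in the Non-Targeting sgRNAs. The groups did not overlap, but only narrowly, and the log2 fold change was 0.58 ± 0.18 (SE) with an adjusted p of 0.168 by edgeR. CDCA7 had 22.0, 18.9, 23.2 and 20.4 CPM in PGAM1 sgRNAs, against 11.9, 17.7, 18.9 and 16.4 CPM in Non-Targeting sgRNAs, which again did not overlap by a small margin (log2 fold change 0.44 ± 0.24). PCNA had 176, 130, 127 and 123 CPM in PGAM1 sgRNAs and 112, 105, 109.9 and 109.8 CPM in Non-Targeting sgRNAs, so that all 4 lay above all controls (0.25 ± 0.11, adjusted p = 0.433). These 3 of the 41 tested members were the ones without overlap on the higher side, where 2.73% of all genes were, and none was on the lower side (2.2%).

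POLD3 averaged 38.8 ± 6.56 CPM in PGAM1 sgRNAs and 27.0 ± 3.95 CPM in Non-Targeting sgRNAs (SD, n = 4 each), but the groups overlapped (log2 fold change 0.43 ± 0.16, adjusted p = 0.324 by edgeR). The reductase subunit RRM1 averaged 69.2 ± 13.4 CPM in PGAM1 sgRNAs and 51.9 ± 5.76 CPM in Non-Targeting sgRNAs, with 0.33 ± 0.13 and an adjusted p of 0.375. ORC6 had 48.03, 41.9, 51.4 and 33.4 CPM in PGAM1 sgRNAs, against 35.1, 29.0, 34.8 and 32.7 CPM in Non-Targeting sgRNAs, so 1 of the 4 lay within the controls (0.33 ± 0.15, adjusted p = 0.520). The lowest members were SLBP (-0.09 ± 0.13), UNG (-0.08 ± 0.29) and CDT1 (-0.06 ± 0.14), none of which differed beyond its error, and the plain mean of UNG was slightly higher, at 10.9 CPM in PGAM1 and 10.7 CPM in Non-Targeting sgRNAs. The 53 mitotic genes moved in the same direction in this group, with 53 of 53 log2 fold changes above 0 and a median of 0.24, 23 of them at an unadjusted p under 0.05 and 0 called by edgeR or DESeq2. In cells at or below the median of mitotic UMIs, POLD3 turned to -0.12. Whether the share of cycling cells plays a part in the members' values was not tested here.

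CTNNB1 sgRNAs, which target beta-catenin, gave 6 members with an unadjusted p under 0.05, all of them higher. NASP ranged from 138 to 170 CPM in the 6 CTNNB1 sgRNAs with a median of 148 CPM, against 136, 117, 125 and 120 CPM in the Non-Targeting sgRNAs. All 6 lay above all controls, with a log2 fold change of 0.21 ± 0.07 and an adjusted p of 1.00 by edgeR. GINS2 ranged from 15.6 to 20.9 CPM with a median of 17.5 CPM in CTNNB1 sgRNAs, against 13.2, 13.7, 13.9 and 13.5 CPM in Non-Targeting sgRNAs, also with no overlap (0.36 ± 0.16). Those 4 control values rested on only 51, 28, 28 and 14 UMIs, so their close agreement may understate their spread. NASP and GINS2, 2 members of 41, compare with 0.821% of all genes above all controls, and 0 members below them with 0.717%. CDC6 averaged 13.9 ± 2.50 CPM in CTNNB1 sgRNAs (n = 6) and 10.2 ± 2.77 CPM in Non-Targeting sgRNAs (n = 4), with overlap and a log2 fold change of 0.42 ± 0.20. BRCA2, POLD3 and CHAF1B were the other members of the 6. At the low end were CASP8AP2 (-0.18 ± 0.13), DSCC1 (-0.04 ± 0.16) and MCM4 (-0.03 ± 0.09). DSCC1 and MCM4 had slightly higher plain means in CTNNB1 than in Non-Targeting sgRNAs.

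In the MYC group, 2 sgRNAs with 23 and 45 cells gave the widest range of values and the largest errors. The loading factor CDC6 had 11.2 and 26.8 CPM in the sgRNAs labelled MYC, against 9.04, 14.2, 7.96 and 9.63 CPM in Non-Targeting sgRNAs, so 1 of the 2 lay within the controls (log2 fold change 1.05 ± 0.47, adjusted p = 0.574 by edgeR). GMNN had 14.9 and 18.6 CPM in the sgRNAs labelled MYC, against 27.4, 33.4, 30.3 and 33.7 CPM in Non-Targeting sgRNAs, without overlap (-0.83 ± 0.37, adjusted p = 0.574). RRM2 had 52.3 and 59.8 CPM in the sgRNAs labelled MYC, against 41.6, 36.8, 40.3 and 32.7 CPM in Non-Targeting sgRNAs, also without overlap (0.53 ± 0.25, adjusted p = 0.620). With so few sgRNAs such separation is common: 4 members (RRM2, GINS2, POLD3 and PCNA) lay above and 4 (GMNN, MCM6, POLA1 and E2F8) below all controls, beside 11.6% and 14.8% of all genes. MCM5 (0.78 ± 0.41), E2F8 (-0.66 ± 0.60) and MCM4 (-0.41 ± 0.26) were the other members at the ends. In cells at or below the median of mitotic UMIs, where 1 sgRNA labelled MYC remained, RRM2 and MCM5 turned to -4.85 and -0.95. Cells of the MYC sgRNAs were also shallower, with medians of 9654 and 10319 UMIs per cell against 12000 to 12656 in Non-Targeting cells, and the part of this depth in the result was not tested.

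ATF4 is a factor that switches on amino acid synthesis and other genes under cellular stress. With its sgRNAs, ORC6 ranged from 33.8 to 49.4 CPM with a median of 43.2 CPM over the 6 sgRNAs, against 35.1, 29.0, 34.8 and 32.7 CPM in Non-Targeting sgRNAs. The groups overlapped, although all 6 sgRNAs lay above the control mean (log2 fold change 0.30 ± 0.12, adjusted p = 0.218 by edgeR). NASP ranged from 126 to 161 CPM with a median of 152 CPM in the ATF4 sgRNAs, with a log2 fold change of 0.20 ± 0.08 and an adjusted p of 0.196, and 1 of the 6 lay within the controls. E2F8 (0.34 ± 0.19) and FEN1 (0.25 ± 0.17) were the other highest members, and CDC45 (-0.18 ± 0.15), CDT1 (-0.18 ± 0.11) and MCM6 (-0.17 ± 0.14) the lowest. No member separated all ATF4 sgRNAs from all controls, which 2.38% of all genes did upward and 1.73% downward.

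JUN, an AP-1 subunit, and CTCF, an insulator protein at chromatin loop anchors, were the remaining targets, and in neither group did a member lie above or below all controls (0.467% and 0.415% of all genes for JUN, 0.787% and 0.631% for CTCF). GINS2 ranged from 10.7 to 21.1 CPM with a median of 17.9 CPM in the JUN sgRNAs, against 13.2 to 13.9 CPM in the Non-Targeting sgRNAs, so the JUN values spread on both sides (0.40 ± 0.18, adjusted p = 1.00 by edgeR, and -0.04 in cells with at most 10% mitochondrial UMIs). UNG (0.31 ± 0.21) and POLD3 (0.24 ± 0.13) were next, and DSCC1 (-0.20 ± 0.18), ATAD2 (-0.12 ± 0.11) and CDC45 (-0.11 ± 0.15) were lowest. E2F8 ranged from 9.89 to 33.6 CPM with a median of 18.1 CPM in the CTCF sgRNAs, against 16.3, 15.7, 10.9 and 13.5 CPM in Non-Targeting sgRNAs, with overlap on both sides (0.37 ± 0.18, adjusted p = 0.801). UNG (0.32 ± 0.20) and POLD3 (0.23 ± 0.12) followed for CTCF, and CDC45 (-0.19 ± 0.15), MCM6 (-0.17 ± 0.13) and BLM (-0.14 ± 0.19) were lowest. With JUN sgRNAs, 51 of 53 mitotic genes had a log2 fold change above 0, with a median of 0.20 and 17 at an unadjusted p under 0.05, while the members' median was 0.04. Of these mitotic genes, 0 were called by edgeR or DESeq2.

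A joint test of any difference among the 7 groups also called none of the 41 members by edgeR or DESeq2, where 5.59% of all genes were called by edgeR, and 4 members had an unadjusted p under 0.05, as did 17.5% of all genes. These were CDC6 (adjusted p = 0.172), PCNA (0.233), RRM1 (0.268) and NASP (0.274). Of 53 tested genes in a list of other replication and G1/S genes, 0 were called in any of the 6 contrasts by edgeR or DESeq2. At an unadjusted p under 0.05, 3 were higher and 1 lower for ATF4, 7 and 3 for PGAM1, and 0 and 3 for MYC. They were 5 and 1 for CTNNB1, 1 and 0 for JUN, and 0 and 4 for CTCF. The shares of all genes at that level are given above, such as 4.36% higher and 4.36% lower for PGAM1. A list of 12 genes that brake or open the way into S phase, such as CDKN1A, RB1 and CCND1, was also tested. By edgeR 0 of them were called in the contrasts and the joint test, and by DESeq2 1 in the joint test. At an unadjusted p under 0.05, 3 were higher and 0 lower for ATF4 (6% and 6.45% of all genes). For PGAM1, 2 were higher and 1 lower (4.36% and 4.36% of all genes), and the other targets had 0. Of the 53 mitotic genes, 8 were called in the joint test by edgeR and 4 by DESeq2.

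Summed over all 42 members, the level was 1719, 1257, 1435 and 1263 CPM in the PGAM1 sgRNAs, against 1205, 1219, 1233 and 1190 CPM in the Non-Targeting sgRNAs. All 4 PGAM1 sums lay above all 4 control sums, and PGAM1 sgRNA 1, the highest, rests on 37 cells. The CTNNB1 sums lay between 1238 and 1382 CPM with a median of 1318 CPM. They too were all above the controls, but the lowest, at 1238 CPM, only just exceeded the highest control at 1233 CPM. ATF4 sums lay between 1077 and 1397 CPM (median 1309), JUN sums between 1104 and 1447 CPM (median 1223) and CTCF sums between 1110 and 1365 CPM (median 1245), and each of these groups had sgRNAs on both sides of the controls. The MYC sums were 1079 and 1426 CPM. The controls spanned a narrower range than the sgRNAs of any target group. Mitotic sums were 3327 to 4965 CPM in PGAM1, 3350 to 3855 CPM in CTNNB1 and 3013 to 3737 CPM in Non-Targeting sgRNAs, and no test was made of any sum.

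**Figure D5:**
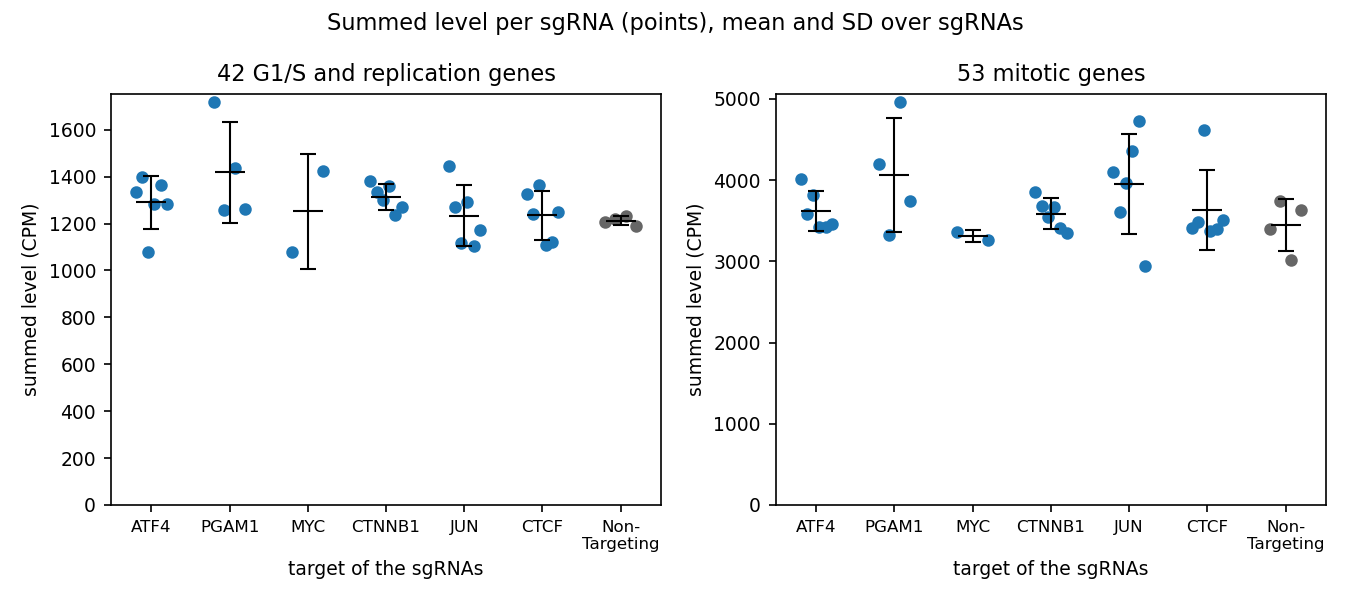
Summed level in CPM (y axis from 0) of the members and of the mitotic genes, per sgRNA (points) with mean and SD, by sgRNA target with Non-Targeting sgRNAs at the right. Member sums of all 4 PGAM1 and all 6 CTNNB1 sgRNAs lie above the 4 controls at 1190 to 1233 CPM. The lowest CTNNB1 sum, 1238 CPM, does so by a narrow margin.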

How the data were processed

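The deposited values were raw counts, that is UMIs of genes and of sgRNAs per cell barcode. Per the file headers, the authors made them with Cell Ranger 6.1.2, and the submitters' processing notes name the build hg38. How reads were aligned or doublets treated before deposit was not analysed here.

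A filter kept cells with 1000 or more gene UMIs, 500 or more genes and no more than 20% mitochondrial UMIs. Each kept cell went to its leading sgRNA if that sgRNA had 5 or more UMIs that made up 80% or more of the cell's sgRNA UMIs. Among kept cells, 9.96% carried 5 or more UMIs for each of several targets, as did 93 assigned cells. No cell barcode was duplicated. Counts were summed per sgRNA with 20 or more cells (34 sgRNAs, 5530 cells) and compared in 1 fit by edgeR 4.0.16 in R 4.3.3, using the quasi-likelihood test with TMM factors and the package's default low-count filter, which left 11570 genes. P-values were adjusted by Benjamini-Hochberg over all these genes at a threshold of 0.05. DESeq2 1.42.0 was an alternative, and genes to which it gave no adjusted p were counted as not called. The procedure was tested on simulated data. CPM are the counts of an sgRNA divided by its gene UMIs and scaled to a common total. The precision is set by the sums of 267726 to 6430143 UMIs.

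Order across cells used cells thinned to 5000 UMIs, and promoter windows were matched by symbol. In each contrast the text names the 3 members with the highest and the 3 with the lowest log2 fold change among those with a mean of at least 10 CPM, in the order the 5 earliest and the 5 latest members, and 15 genes most like the members. Tested members with an unadjusted p under 0.05 or without overlap were also named, chosen after their values were seen. The members, the lists and the tests were chosen with earlier results of these data known. The joint test of the list of other replication genes is not reported here.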

Additional observations from a re-analysis of the deposited data

Results flagged for a closer look

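In 57 groups of 4 to 6 sgRNAs, 2 values stood apart from the rest of their group by Dixon's test, where chance gives about 1 in 20. The BRCA2 level in CTNNB1 sgRNA 6 was 19.4 CPM, below the next lowest CTNNB1 sgRNA at 24.7 CPM, and this sgRNA had 32 cells. The summed member level in ATF4 sgRNA 3 was 1077 CPM, below the next lowest ATF4 sgRNA at 1282 CPM.

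For 2 members, every PGAM1 sgRNA lay above the control mean and every sgRNA labelled MYC below it. Only members named at the ends of a contrast were checked, and both were named as among the 3 lowest with the sgRNAs labelled MYC. With 2 such sgRNAs the pattern is easily met, and its share over all genes was not counted. The log2 fold change of GMNN was 0.18 with PGAM1 sgRNAs and -0.83 with the sgRNAs labelled MYC. That of MCM4 was 0.11 with PGAM1 sgRNAs and -0.41 with the sgRNAs labelled MYC. The difference between these groups was not tested.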

How the results depend on the processing

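Under the alternatives run (DESeq2, RLE size factors, no filter on low counts, a stricter sgRNA rule, at most 10% mitochondrial UMIs, only cells at or below the median of mitotic UMIs, only cells with at least 5000 UMIs, only target and control sgRNAs in the fit, and each sgRNA left out in turn), 0 members were called in any contrast or in the joint test. The smallest adjusted p was 0.0597, for NASP in the joint test without MYC sgRNA 4. With 1 sgRNA left of MYC, its spread is assumed to be that of the other groups. DESeq2 gave no adjusted p for some members, so it could not call those. No paired analysis was possible because all groups come from 1 pooled culture and the sgRNA numbers only name sequences.

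The mean summed member level was 1506 CPM for MYC (1 sgRNA) and 1233 CPM for Non-Targeting under the stricter sgRNA rule, and 1469 CPM for CTNNB1 and 1308 CPM for Non-Targeting at most 10% mitochondrial UMIs, where MYC had no sgRNA with 20 cells. Some log2 fold changes changed sign, none of them called. In cells at or below the median of mitotic UMIs these were FEN1 (-0.042) and MCM6 (0.18) for ATF4, POLD3 (-0.12) and UNG (0.36) for PGAM1, MCM5 (-0.95) and RRM2 (-4.85) for MYC (1 sgRNA), MCM4 (0.23) for CTNNB1 and ATAD2 (0.49) for JUN. At most 10% mitochondrial UMIs, they were CASP8AP2 (0.084) and DSCC1 (0.21) for CTNNB1, GINS2 (-0.039) and UNG (-0.16) for JUN and MCM6 (0.083) for CTCF, and under the stricter sgRNA rule CDC45 (0.021) for JUN. The range with 1 sgRNA left out was -0.28 to 0.22 for UNG and -0.16 to 0.0050 for CDT1 with PGAM1, -0.12 to 0.12 for DSCC1 and -0.070 to 0.026 for MCM4 with CTNNB1, and -0.23 to 8.1e-05 for CDC45 with JUN. The members' median log2 fold change also moved with the cells used, as given beside the medians. The cause was not tested. The MYC group had the fewest sgRNAs, cells and UMIs.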
